A study of Homo sapiens with 4 samples.

Results

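Human chromosome 19 holds the densest collection of zinc finger genes in the genome, and the 249 analysed here were all protein-coding genes of that chromosome whose symbol was ZNF followed by a number, out of 58302 genes measured. Most of them encode proteins that carry a KRAB domain in front of a row of C2H2 fingers, in which pairs of cysteines and histidines hold a zinc ion. The fingers read DNA, often inside retrotransposons, and the KRAB domain recruits TRIM28 (KAP1), which brings the histone methyltransferase SETDB1 and HP1 proteins and so closes the chromatin. Members without a KRAB domain can act in other ways, and many ZNF genes lie in clusters that arose by duplication.

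The libraries were made from HepG2, an established human hepatoma cell line with a wild-type label and no engineered allele. Cells received 1 mM melatonin or its solvent DMSO, each for 24 h and for 48 h, and 1 library of polyadenylated RNA was sequenced for each of the 4 conditions. With no replicate, no difference between conditions could be set against the spread between cultures, and no p-value for melatonin was computed. The intervals given are 95% exact intervals of the read numbers and cover counting error alone. Expression is given as the deposited FPKM, in which fragments are divided by the length of the gene and by a size of the library.

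Between 21616676 and 23086025 reads per library fell on genes, and the ZNF genes of chromosome 19 took 38062 of them under DMSO and 43402 under melatonin at 24 h, and 50032 and 50380 at 48 h. Those reads were 0.176%, 0.190%, 0.217% and 0.221% of each library in that order. Mitochondrial genes took a share that differed more, at 19.96% (DMSO) and 16.6% (melatonin) for 24 h and 9.77% and 11.9% for 48 h, and its part in the results below was not tested. All 9 hepatocyte markers were expressed (FPKM from 34.9 to 3343 over the libraries), while 8 markers of blood, endothelial and fibroblast cells lay between 0 and 1.10.

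To show what unites these genes, a finger with the linker behind it is given for the 3 lowest and the 3 highest members of the 48 h comparison (84 bases, coding strand, read from hg38, capitals marking the codons of the zinc-binding cysteines and histidines). In the first 3 melatonin was lower than DMSO, and in the last 3 it was higher.
ZNF579, exon 2 of 2, minus strand, chr19:55579421-55579504: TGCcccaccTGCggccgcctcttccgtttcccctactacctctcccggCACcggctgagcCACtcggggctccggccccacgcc
ZNF114, exon 6 of 6, plus strand, chr19:48286540-48286623: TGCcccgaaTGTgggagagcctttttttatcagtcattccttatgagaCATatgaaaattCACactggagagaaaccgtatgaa
ZNF44, exon 5 of 5, minus strand, chr19:12273577-12273660: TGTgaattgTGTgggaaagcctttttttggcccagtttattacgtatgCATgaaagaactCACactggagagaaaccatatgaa
ZNF66, exon 4 of 4, plus strand, chr19:20806207-20806290: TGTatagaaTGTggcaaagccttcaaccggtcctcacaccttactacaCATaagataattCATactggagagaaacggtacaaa
ZNF784, exon 2 of 2, minus strand, chr19:55622441-55622524: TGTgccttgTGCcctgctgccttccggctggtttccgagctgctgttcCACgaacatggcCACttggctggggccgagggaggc
ZNF530, exon 3 of 3, plus strand, chr19:57606246-57606329: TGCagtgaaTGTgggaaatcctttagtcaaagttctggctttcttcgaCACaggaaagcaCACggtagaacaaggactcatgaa
All 6 stretches keep the cysteine and histidine codons at the same spacing, by which they were found. Their GC content was 73.8% in ZNF579, 40.5% in ZNF114 and 39.3% in ZNF44, and 40.5% in ZNF66, 65.5% in ZNF784 and 44.05% in ZNF530, so each side held both GC-rich and AT-rich fingers. Over the 8 lowest members at 48 h it ran from 36.9% to 73.8%, and over the 8 highest from 27.4% to 65.5%.

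A KRAB A box was looked for in the translated coding sequences of each gene as a pattern of 30 defined positions, with at least 70% of them matching. By this search 212 of the 249 genes had the box, 35 lacked it and 2 had no coding sequence to search. ZNF473, which encodes a factor in histone mRNA processing, and ZNF446 missed the minimum with 56.7% and 63.3%, and ZNF180 passed it with 73.3%. The search sees annotated coding sequences alone, and ZNF714, counted as lacking the box with 36.7%, could carry one outside them. The number of fingers ranged from 0 in the read-through gene ZNF625-ZNF20 to 36 in ZNF208, with a median of 12. It was 13 among KRAB genes and 9 among the rest.

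The classes also differed in base composition. The median GC content of the longest transcript was 41.9% for KRAB genes and 59.6% for genes without the box, against 48.7% for all protein-coding genes. Of the 35 genes without the box 22 exceeded 55% GC, and 2 of the 212 KRAB genes did. The promoter windows of RefSeq (250 bases before to 50 after the start, GRCh38.p14) were closer, with a median GC content of 59% in 183 KRAB genes, 64% in 33 genes without the box and 58.3% over 27305 promoters. They held a median of 20, 24 and 14 CpG dinucleotides in the same order.

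Most of these genes were expressed at low levels in HepG2. The median FPKM of the 249 genes was 0.976 under DMSO and 1.15 under melatonin at 24 h, and 0.985 and 1.14 at 48 h. An FPKM of at least 1 was reached by 122, 136, 123 and 137 genes in those libraries, by 149 in at least 1 library and by 111 in all of them. The other 100 genes stayed under 1 everywhere, and 16 of them had no read in any library. A count of 0 allows up to 3 reads, which for a gene of 1 kb is an FPKM of 0.163 in the DMSO 24 h library and of 0.137 in the DMSO 48 h library.

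KRAB genes sat lower than the others in each library. Their median FPKM was 0.909 and 1.04 at 24 h (DMSO, then melatonin) and 0.886 and 1.07 at 48 h. The genes without the box had medians of 2.66, 3.19, 2.67 and 2.70. An FPKM of at least 1 in any library was seen for 122 of 212 KRAB genes (57.5%) and for 27 of 35 others (77.1%). FPKM is divided by the length of the gene but not adjusted for GC content, in which the classes differed. Of the 249 genes 14 shared most of their 50-base words with another gene, and their reads could have been split. By coordinates 182 overlap another annotated gene. ZNF579, ZNF784, ZNF331, ZNF121, ZNF530 and ZNF792, which are described below, overlap none.

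**Figure D1:**
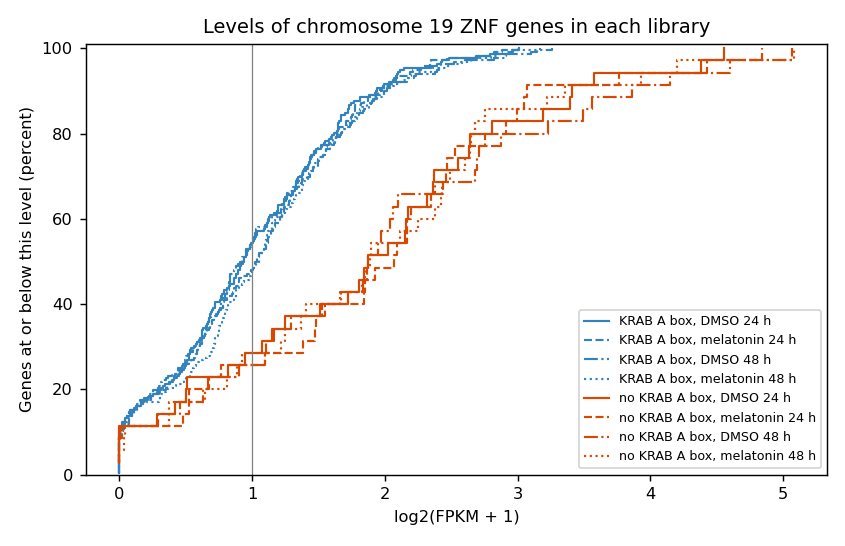
Cumulative share of the chromosome 19 ZNF genes (percent) at or below each level, as log2(FPKM + 1), with 1 line per library for the 212 KRAB genes (blue) and the 35 genes without the box (orange); the vertical line marks an FPKM of 1. The 4 lines of a class run close together, and the genes without the box lie to the right of the KRAB genes.

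Most of the genes with the highest mean levels lacked the KRAB box. ZNF581 had the highest mean, with an FPKM of 19.9 and 27.6 under DMSO and melatonin at 24 h and of 32.6 and 32.8 at 48 h. ZNF787 followed with 22.5, 20.5, 23.2 and 17.4 in the same order. ZNF146, which encodes a protein of fingers alone (OZF), had 10.9, 12.6, 16.8 and 14.2, and its gene overlaps ZNF565. With ZNF444, ZNF428 and ZNF121 these were the 6 highest, and none of them had the box. ZNF556 and ZNF317 were the KRAB genes with the highest means, with values from 6.08 to 7.99 and from 6.22 to 8.59. ZNF581 overlaps ZNF580 on the same strand and shares 16.1% of its 50-base words with other genes, so its level is uncertain.

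Of members known from work on retrotransposons, ZNF91, which represses SVA elements, was expressed at an FPKM of 1.86 and 2.02 at 24 h and of 2.36 and 2.40 at 48 h (DMSO and melatonin). ZNF93, which binds an older form of L1, had 6, 10, 7 and 5 reads, an FPKM under 0.1 in every library. ZNF382, a KRAB repressor often silenced in tumours, stayed under 1 with 0.438, 0.714, 0.818 and 0.836. ZNF274, which brings SETDB1 to the 3′ ends of ZNF genes themselves, had 3.26 and 3.31 at 24 h and 6.51 and 4.66 at 48 h. ZNF93 and ZNF382 were too low to be tested. ZNF91 and ZNF274 were within 2-fold between melatonin and DMSO at both times, and their 24 h values had overlapping intervals.

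At 24 h no tested ZNF gene of chromosome 19 was called past 2-fold between melatonin and DMSO, with 1 or with 0.1 added to the FPKM. Fold changes were taken as log2((FPKM + 1) of melatonin over (FPKM + 1) of DMSO) where either library had an FPKM of 1 or more, and a gene was called past 2-fold at 1 or more or at -1 or less. Of 139 ZNF genes that could be tested 0 were called, and over all tested genes the share was 4.35% (1.42% higher and 2.93% lower). That share includes non-coding genes, and it was 0.63% over protein-coding genes and 0 of 174 over the ZNF genes of other chromosomes. The added 1 shrinks ratios most at low FPKM, and the median FPKM of the 249 genes lay between 0.976 and 1.15. The log2 fold changes ran from -0.62 to 0.68, with a median of 0.04 (0.02 over all tested genes and 0.04 over protein-coding ones), a median that became -0.01 after correction for GC content and length. In 84 of 139 genes (60.4%) melatonin was the higher library, against 53.5% of all tested genes and 57.9% of protein-coding ones, and after correction for GC content and length it was the higher in 66 of 139. At 1.5-fold ZNF784 was called higher (background 4.02%) and ZNF331 lower (7.53%), 2 of 139 against 11.6% in either direction (4.66% of protein-coding genes). Summed over the 249 genes, the reads per library size with melatonin were 1.03 times those with DMSO (1.02 to 1.05). That ratio was 0.957 over all genes and 1.03 over the ZNF genes of other chromosomes.

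The member furthest above 0 at 24 h was ZNF784 (ENSG00000179922), a gene without the box at chr19:55620742-55624601. Its FPKM was 4.16 with DMSO and 7.28 with melatonin, a ratio of 1.75 (1.44 to 2.14). The 48 h libraries showed the same order, with 2.64 and 5.08, a ratio of 1.93 (1.54 to 2.42). Melatonin was thus the higher library at both times, with intervals that did not overlap.

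ZNF627, a KRAB gene at chr19:11559374-11619135, also had melatonin higher at both times. Its FPKM was 1.61 and 2.59 at 24 h and 1.70 and 3.14 at 48 h, and the ratios were 1.61 (1.27 to 2.05) and 1.84 (1.5 to 2.28). ZNF420, which encodes the p53 regulator APAK, stood at 0.839 and 1.58 at 24 h but at 1.17 and 1.39 at 48 h, where the intervals overlapped. ZNF581 had 19.9 and 27.6 at 24 h and no such gap at 48 h. ZNF433, ZNF324B, ZNF14 and ZNF844 complete the 8 highest, with log2 fold changes of 0.44, 0.42, 0.42 and 0.42. ZNF844 shares 45.4% of its 50-base words with other sequences, and its reads are uncertain.

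ZNF331 (ENSG00000130844) was the lowest member at 24 h. This KRAB gene is imprinted and is often silenced by methylation in digestive tract tumours, and it lies at chr19:53520981-53580269. Its FPKM at 24 h was 2.30 (DMSO, 327 reads) and 1.15 (melatonin, 180 reads), and at 48 h it was 2.42 and 1.93 (410 and 332 reads). The melatonin 24 h library was therefore the low one of the 4, with a ratio of 0.498 (0.413 to 0.599) at 24 h and of 0.800 (0.690 to 0.927) at 48 h. With the added 1 in the fold change its log2 value was -0.62.

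ZNF121 and ZNF444, both without the box, came next at 24 h with log2 fold changes of -0.49 and -0.41. ZNF121 had 9.53 with DMSO at 24 h and between 5.74 and 6.51 in the other libraries, so the DMSO 24 h library was the one that stood apart. ZNF444, which encodes a SCAN domain protein, had 9.61 and 6.98 at 24 h and 13.5 and 8.32 at 48 h. Its intervals did not overlap between melatonin and DMSO at either time. ZNF429, ZNF563, ZNF221, ZNF573 and ZNF234 complete the 8 lowest, with values from -0.34 to -0.24, and the interval of the ratio spanned 1 for ZNF221 (0.458 to 1.03).

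**Figure D2:**
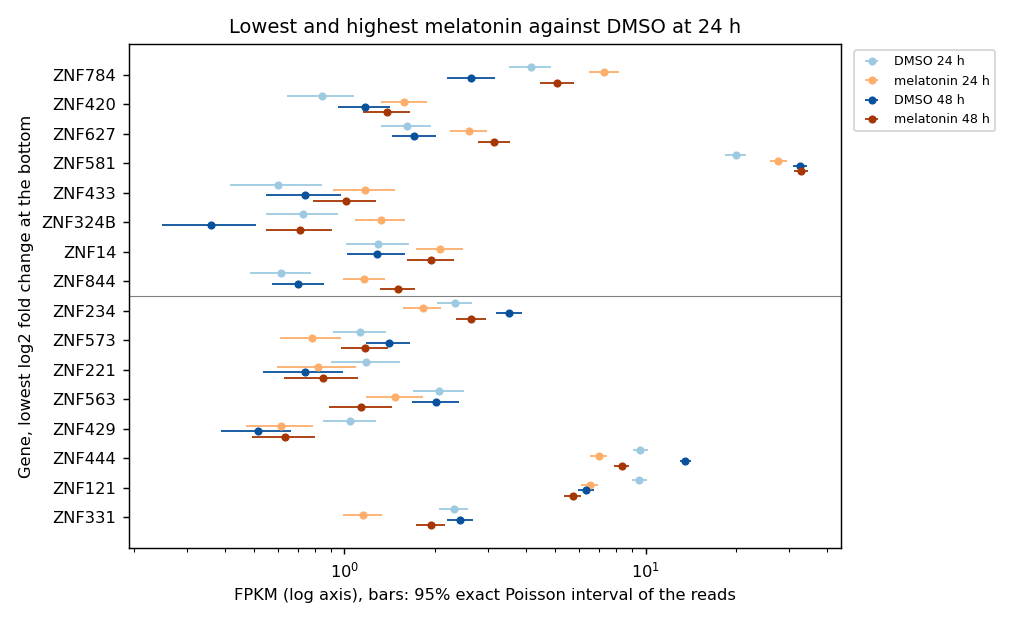
FPKM (log axis) of the 8 highest and 8 lowest members for melatonin against DMSO at 24 h, 1 point per library with its 95% exact Poisson interval. In ZNF331 the melatonin 24 h point (1.15) lies left of the other 3, and in ZNF784 both melatonin points lie right of the DMSO point of their time.

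Counting error allowed finer differences to be seen, which concern the libraries and not the treatment. In an exact binomial test of the reads, with Benjamini-Hochberg adjustment over all tested genes, 42 of 139 members differed between the 24 h libraries, 30 with melatonin higher and 12 with it lower. Over all tested genes 45.3% differed, 25.2% with melatonin higher and 20% with it lower. For the members these shares were 30.2%, 21.6% and 8.63%, and for protein-coding genes 52.1%, 31% and 21%. The test calls smaller differences where reads are many, and most members were expressed at low levels. The same limit applies to this test at 48 h and for time.

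At 48 h, 1 of 140 tested members was called past 2-fold, against 5.72% of all tested genes (2.39% higher and 3.32% lower). The share was 2.39% of protein-coding genes and 0 of 176 ZNF genes of other chromosomes. With 0.1 added in place of 1, ZNF530 and ZNF66 were also called higher, and ZNF114 and ZNF44 lower. The log2 fold changes ran from -1.07 to 0.76, with a median of 0.05 where all tested genes had -0.02, and 79 members (56.4%) were above 0 against 47.5% of all tested genes and 49.0% of protein-coding ones. Summed over the 249 genes, the ratio was 0.995 (0.982 to 1.007), against 0.976 over all genes and 0.956 over the ZNF genes of other chromosomes. At 1.5-fold 13 members were called, 7 higher and 6 lower, or 9.29% against a background of 18.7% (8.62% higher and 10% lower) and 13.1% of protein-coding genes. By the exact binomial test 78 members differed (41 higher and 37 lower), or 55.7% against 59.4% (27.8% higher and 31.6% lower). Of protein-coding genes 67.6% differed, 32.5% higher and 35.1% lower.

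On the scale with 1 added, the member called past 2-fold at 48 h was ZNF579 (ENSG00000218891). It is a GC-rich gene without the box at chr19:55576770-55580845 (minus strand). Its reads numbered 297 (DMSO) and 304 (melatonin) at 24 h, and 748 and 323 at 48 h. In FPKM these were 4.87, 4.51, 10.3 and 4.38. Melatonin at 48 h was at the level of both 24 h libraries, and the DMSO 48 h library stood above the other 3. The 48 h ratio was 0.426 (0.373 to 0.487) and the log2 fold change -1.07.

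ZNF44, a KRAB gene at chr19:12224686-12294887, had the same shape. Its FPKM was 2.02 and 2.1 at 24 h and 4.32 and 2.06 at 48 h with DMSO and melatonin, a 48 h ratio of 0.477 (0.411 to 0.551). ZNF114, a KRAB gene at chr19:48270102-48287608, had 3.28, 2.67, 4.2 and 1.67, a 48 h ratio of 0.397 (0.316 to 0.497). Here the melatonin 48 h library was below both 24 h libraries, with an interval that met neither of theirs. ZNF628, which has the highest GC content of the named members (70.8%), had 2.31 and 2.61 at 24 h and 3.11 and 1.58 at 48 h, and the melatonin 48 h library was again the lowest.

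ZNF444, ZNF580, ZNF69 and ZNF524 complete the 8 lowest at 48 h. ZNF444 and ZNF580 had ratios of 0.615 (0.574 to 0.659) and 0.626 (0.541 to 0.722). ZNF69 and ZNF524 had log2 fold changes of -0.56 and -0.55. Of these 8 genes ZNF628, ZNF579, ZNF524, ZNF580 and ZNF444 lie in the cluster from ZNF628 to ZNF446 at the far end of the long arm, as do ZNF784 and ZNF530 of the 8 highest. That cluster held 40 of the 140 tested members, of which 19 were above 0. ZNF580, which was described in endothelial cells, overlaps ZNF581 and CCDC106, ZNF628 and ZNF444 each overlap a further gene, and ZNF524 overlaps FIZ1. Whether strand was kept is not stated, so reads in such overlaps are uncertain.

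Among the members with more RNA after melatonin at 48 h, the gap in ZNF66 and ZNF530 came with a low DMSO 48 h library. ZNF66, a KRAB gene at chr19:20776304-20807322, had 57 and 69 reads at 24 h (DMSO, then melatonin), and 15 and 72 at 48 h. In FPKM these were 1.03, 1.13, 0.227 and 1.08, and the 48 h ratio was 4.74 (2.69 to 8.91). On the scale with 1 added, which understates ratios at low levels, the log2 fold change was 0.76. ZNF530, a KRAB gene at chr19:57599885-57612722, had 1.40, 1.59, 0.391 and 1.26, a 48 h ratio of 3.22 (2.27 to 4.64).

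ZNF792, ZNF616, ZNF714 and ZNF101 also had melatonin higher at 48 h. ZNF792 had 1.69 with DMSO and 3.31 with melatonin, a ratio of 1.96 (1.61 to 2.39). ZNF714 had 2.60 and 3.48 at 24 h and 1.45 and 2.70 at 48 h, so melatonin was higher at both times. ZNF101 had 3.20 and 4.10 at 24 h and 3.20 and 5.27 at 48 h, and there the melatonin 48 h library was the high one. ZNF616 had 1.52 and 2.86 at 48 h, a log2 fold change of 0.62, and overlapping intervals at 24 h.

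**Figure D3:**
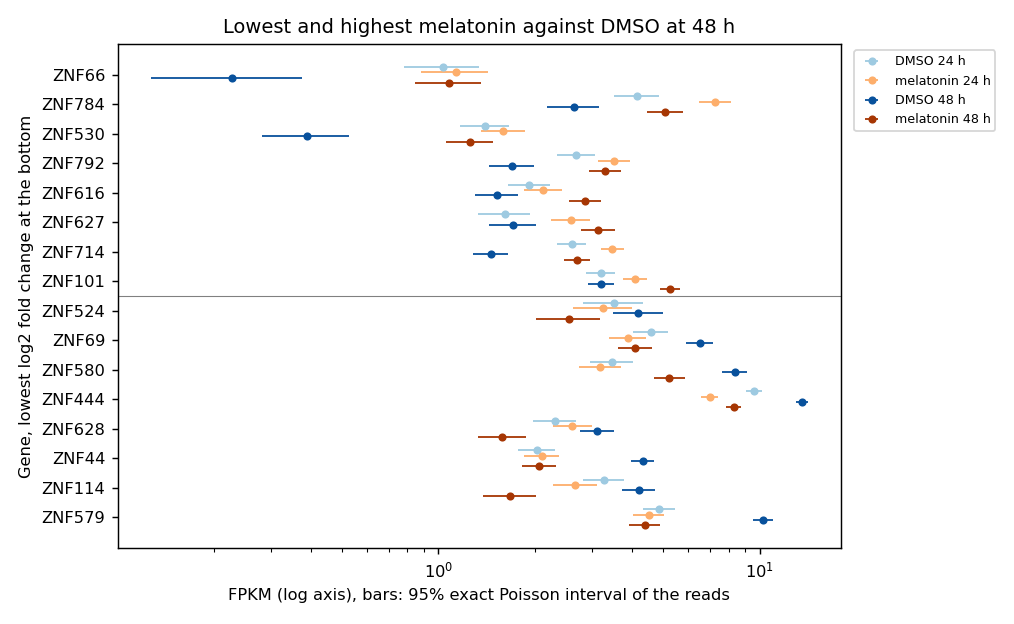
FPKM (log axis) of the 8 highest and 8 lowest members for melatonin against DMSO at 48 h, 1 point per library with its 95% exact Poisson interval. In ZNF579 and ZNF44 the DMSO 48 h point lies right of 3 points that overlap, and in ZNF66 and ZNF530 it lies left of them.

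The protein classes lay on different sides of 0 at 48 h. The tested KRAB genes had a median of 0.07, with 68 of 114 above 0, and the tested genes without the box had -0.08, with 11 of 26 above 0. After correction for GC content and length the KRAB median was 0.03, with 64 of 114 above 0, and without the filter on FPKM it was 0.05. The median of the genes without the box was -0.09 after correction for GC content and length and 0.00 without the filter on FPKM, where 17 of 34 genes were above 0. Without ZNF473 and ZNF446, which were near the pattern's minimum, it was -0.15, and without ZNF714 as well it was -0.17. Summed reads had a ratio of 1.04 (1.03 to 1.06) for the 212 KRAB genes and of 0.874 (0.854 to 0.895) for the 35 others. That ratio was 0.976 over all genes and 0.894 over the other protein-coding genes of chromosome 19. Such a sum weighs genes by their reads. Among well-expressed genes without the box, ZNF444, ZNF787 and ZNF579 were lower with melatonin at 48 h, while ZNF581 was not. The sum was not taken without them, and its interval covers counting error alone.

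GC content went with class, so both were set side by side. At 48 h the tested genes without the box had a median of -0.05 under 55% GC (n = 10) and of -0.12 at 55% or more (n = 16). The former was -0.13 without ZNF714 (n = 9). All protein-coding genes had medians of 0.01 and -0.07 on the 2 sides of that value. Across the 140 tested members the log2 fold change and GC content had a Pearson r of -0.21 and a Spearman rho of -0.09, and across 10565 protein-coding genes of -0.08 and -0.08. These are correlations across genes of the same libraries, and whether class or GC content bears on the fold changes was not tested. At 24 h the class medians were 0.04 (KRAB) and 0.03, of which the former became -0.01 after correction for GC content and length and the latter -0.01 without ZNF473 and ZNF446.

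The ZNF genes were also set beside similar genes. The 48 h median was -0.02 for protein-coding ZNF genes of other chromosomes (176 tested of 265), -0.10 for the other protein-coding genes of chromosome 19 (643 tested of 1219) and -0.01 for all protein-coding genes. At 24 h these medians were 0.06, 0.00 and 0.04. The ZNF genes of chromosome 19, at 0.04 and 0.05, were nearest to all protein-coding genes at 24 h and above all 3 groups at 48 h. After correction for GC content and length their 24 h median was -0.0128, against -0.0024 over all tested genes. None of these differences was tested.

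Of 130 members tested at both times, 57 (43.8%) had melatonin higher at both and 35 (26.9%) had it lower at both, against 34.5% and 32% of 12775 genes and 37.6% and 30.1% of 10312 protein-coding ones. The order turned in 38, with 20 higher at 24 h alone and 18 higher at 48 h alone. Across these genes the log2 fold changes of the 24 h and 48 h libraries, which share no library, had a Pearson r of 0.49 and a Spearman rho of 0.51, against 0.57 and 0.53 over 10312 protein-coding genes. By the exact binomial test 15 members (11.5%) were higher at both times and 8 (6.15%) were lower at both. These shares were 15.1% and 13.4% of all genes tested at both times, and 17.9% and 14.6% of protein-coding ones. ZNF784, ZNF627, ZNF714, ZNF792, ZNF101, ZNF14 and ZNF844 were among the 15, and ZNF331, ZNF121, ZNF444, ZNF563, ZNF234 and ZNF787 among the 8.

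**Figure D4:**
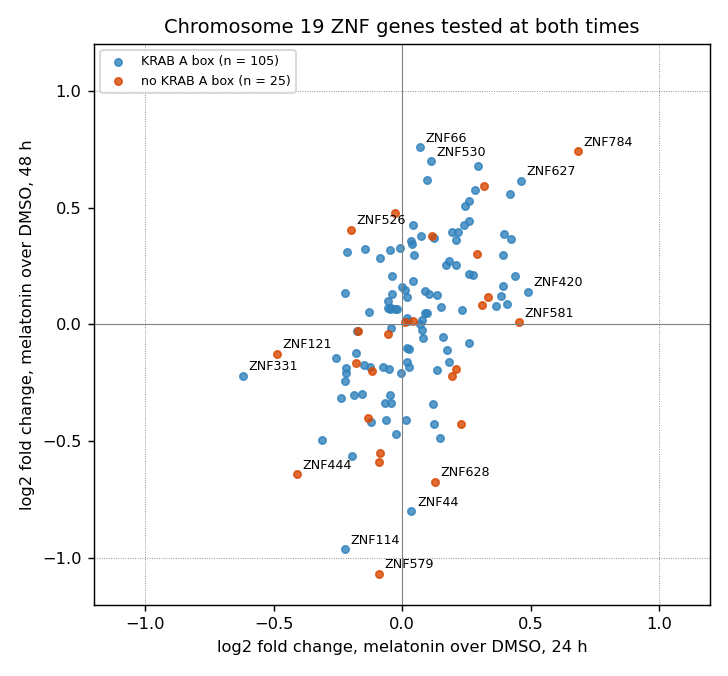
Log2 fold change of melatonin over DMSO at 24 h (x axis) and at 48 h (y axis) for the 130 members tested at both times, 1 point per gene, blue for KRAB genes (n = 105) and orange for genes without the box (n = 25); dotted lines mark 2-fold. ZNF784 and ZNF627 lie high on both axes, ZNF331 and ZNF444 lie low on both, and ZNF579 and ZNF66 depart from 0 at 48 h alone.

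The solvent libraries were compared with each other to see what time in culture alone came with, and this comparison shares a library with each of the others. Of 133 tested members 1 was called past 2-fold, against 7.74% of all tested genes (3.5% higher and 4.24% lower) and 4.43% of protein-coding ones. The median was 0.06 against 0.00, and 77 members (57.9%) were higher at 48 h, against 50.3%. The ZNF genes of other chromosomes were close to the members, with a median of 0.07 and 57.4% higher. All protein-coding genes had -0.01 and 48.6%. At 1.5-fold 12 members were called, 8 higher and 4 lower at 48 h, or 9.02% against 23.8% (11.2% higher and 12.6% lower). By the exact binomial test 72 members differed, 42 higher and 30 lower, or 54.1% against 62.2% (31.2% higher and 31% lower). Of protein-coding genes 18.4% were called at 1.5-fold and 71.2% differed by the binomial test. Summed over the 249 genes, the reads per library size at 48 h were 1.10 times those at 24 h (1.09 to 1.12). That ratio was 0.894 over all genes and 1.08 over the ZNF genes of other chromosomes. The median depends on the scaling, since all tested genes moved by 0.46 on the TPM scale and by 0.14 with library sizes taken as the plain sum of reads.

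On the scale with 1 added, the member called past 2-fold with time was ZNF580. Its FPKM with DMSO was 3.46 at 24 h and 8.37 at 48 h, a ratio of 2.42 (2.03 to 2.89). Other members listed below had FPKM ratios past 2-fold, which the added 1 shrinks. ZNF579, ZNF274, ZNF44 and ZNF112 followed, with ratios of 2.11 (1.84 to 2.42), 1.99 (1.80 to 2.22), 2.14 (1.83 to 2.5) and 3.40 (2.30 to 5.18). ZNF112 was low, at 0.453 and 1.54. At the other end stood ZNF530, ZNF66, ZNF526, ZNF160 and ZNF714. Their ratios of DMSO 48 h over DMSO 24 h were 0.279 (0.193 to 0.397), 0.220 (0.116 to 0.394), 0.559 (0.478 to 0.653), 0.432 (0.351 to 0.530) and 0.560 (0.476 to 0.657). ZNF579, ZNF580 and ZNF44 are in the lowest 8 for melatonin at 48 h and ZNF66, ZNF530 and ZNF714 in the highest 8, and in each of these the same DMSO 48 h library enters both ratios.

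Along the chromosome the genes formed 16 clusters, split where starts lay over 1 Mb apart, of which 7 held at least 16 members. By this rule ZNF333, ZNF536, ZNF507 and ZNF473 each stood alone, as a cluster of 1 member. The cluster from ZNF628 to ZNF446 (chr19:55476332-58481230) was the largest with 59 genes, of which 43 reached an FPKM of 1. The cluster from ZNF101 to ZNF254 (chr19:19668796-24129961), next to the centromere, had 36 genes, 34 of them with a KRAB box, and the lowest median GC content of the large clusters (37.2%). An FPKM of 1 was reached by 15 of its genes, and it held 9 of the 16 genes with no read in any library, ZNF208 with its 36 fingers among them.

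Most of the expressed genes of that cluster had melatonin higher. At 24 h 12 of 14 tested genes had melatonin higher, with a median of 0.18, and at 48 h 10 of 11 did, with a median of 0.36. These medians lay between 0.12 and 0.31 at 24 h and between 0.18 and 0.53 at 48 h under the other scalings and filters. ZNF101, ZNF14, ZNF66 and ZNF714 belong here, and so does ZNF429, which was among the 8 lowest at 24 h (-0.34). Of its genes with any read, whatever the level, 19 of 26 and 22 of 27 had melatonin higher. In the solvent libraries 3 of its 10 tested genes were higher at 48 h, with a median of -0.10. That median became 0.09 on the TPM scale and with plain sums of reads. All tested genes had medians of 0.00, 0.46 and 0.14 in the same order, so the cluster's median stayed below theirs in each. The cluster was singled out after its values were seen, and its genes are related in sequence, so reads could be shared between them.

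The cluster from ZNF575 to ZNF296 (chr19:43525497-45076588, 24 genes) had another pattern. At 24 h 9 of 12 tested genes had melatonin higher (median 0.16), and at 48 h 4 of 12 did (median -0.13). With time in DMSO 9 of 13 were higher at 48 h, with a median of 0.35. Without the filter on FPKM these medians were 0.04, 0.00 and 0.06. On the TPM scale they were 0.19, -0.11 and 0.49, where all tested genes had 0.17, -0.06 and 0.46. This cluster, too, was singled out after its values were seen. ZNF112 and ZNF234 belong here. Near the end of the short arm, all 5 genes from ZNF554 to ZNF77 had melatonin higher at 48 h, with a median of 0.38. ZNF556 among them stood at 6.08 with DMSO and 7.99 with melatonin. At 24 h 4 of 4 tested genes of this cluster had melatonin higher, with a median of 0.17. With time in DMSO 0 of 3 were higher at 48 h, with a median of -0.37, and the DMSO 48 h library enters that comparison too.

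**Figure D5:**
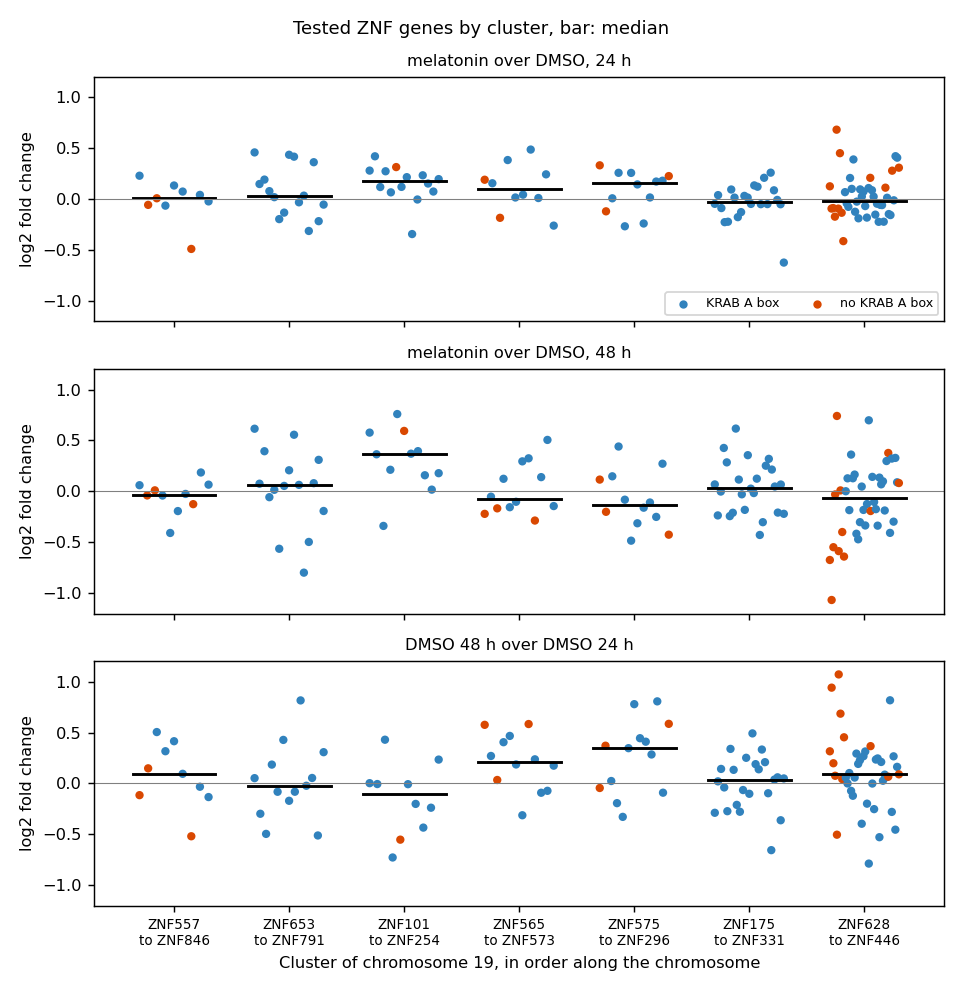
Log2 fold change of tested members in the 7 clusters of at least 16 genes, ordered along chromosome 19, for melatonin over DMSO at 24 h and at 48 h and for DMSO 48 h over DMSO 24 h; points are genes (blue KRAB, orange no KRAB box) and bars are medians. The bar of the cluster from ZNF101 to ZNF254 stands at 0.18 and 0.36 for melatonin and at -0.10 for time in DMSO.

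The proteins that KRAB zinc finger proteins work through were followed as a list of 28 corepressor and heterochromatin genes, of which 27 passed the FPKM minimum. TRIM28, the shared partner, was far above the ZNF genes with an FPKM of 114 and 121 at 24 h and of 108 and 112 at 48 h (DMSO and melatonin). SETDB1 had 4.24, 4.8, 5.22 and 5.27. Neither was past 1.5-fold in any comparison. None of the 27 was called past 2-fold with melatonin at either time. Over all tested genes 4.35% were called at 24 h and 5.72% at 48 h (0.63% and 2.39% of protein-coding genes). The medians of the list were -0.08 and -0.10, against 0.02 and -0.02 over all tested genes.

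At 48 h 3 genes of the list were past 1.5-fold, all with melatonin higher, 3 of 27 where 8.62% of all tested genes were higher and 18.7% past 1.5-fold either way. They were CBX5, which encodes an HP1 protein, the DNA methyltransferase DNMT3B, and UHRF1, which guides DNMT1 to newly copied DNA, with log2 fold changes of 0.87, 0.81 and 0.78. In each of them the DMSO 48 h library was the low one. UHRF1 stood at 18.9 and 15.7 at 24 h and at 8.81 and 15.8 at 48 h. It was the 1 gene of the list called past 2-fold with time in DMSO (-1.02), where 7.74% of all tested genes were called. The list had a median of -0.14 with time, where 8 of 27 genes were above 0, against 0.00 and 50.3% over all tested genes.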

How the data were processed

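RNA of HepG2 cells was sequenced in 4 libraries, 1 per condition, grouped by their labels. The paper's methods name MapSplice 2.0.1.6 for aligning the read pairs (genome hg38) and Cufflinks for expression. The submitters' processing notes list Bowtie2 2.0.6, TopHat2 2.0.9, Cufflinks 2.1.1 and Cuffdiff 2.1.1 without roles. The authors deposited FPKM per Ensembl gene with gene length and coordinates. FPKM times length gave whole reads for 100% of values (tolerance 0.01), from which exact Poisson and Clopper-Pearson intervals and binomial tests were computed. The library size that the FPKM imply was 18357838, 20283332, 21930408 and 22205042 (DMSO and melatonin at 24 h, then at 48 h), which is not the sum of reads on genes.

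The members and lists were chosen with earlier results of these data known. Named were the 8 highest and 8 lowest members per time (at least 50 reads in either library), the 8 highest means, members called at both times (0), ZNF91, ZNF93, ZNF274, ZNF331 and ZNF382, the 5 highest and 5 lowest for time in DMSO, TRIM28, SETDB1 and corepressors past 2-fold. CBX5, DNMT3B and the members that mark clusters or edges of the KRAB pattern were named after their values were seen. KRAB boxes, fingers and GC content came from GENCODE 44 transcripts, translated because no protein table was given. Members overlapping another gene numbered 182. Pseudocounts, filters, thresholds and scalings were varied. Steps were tested on simulated data. Python 3.11.15, numpy 2.4.6, pandas 2.3.3, scipy 1.17.1, matplotlib 3.10.9 and Biopython 1.88 were used.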

Additional observations from a re-analysis of the deposited data

Results flagged for a closer look

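In ZNF134, ZNF146 and ZNF526 the order of melatonin and DMSO turned between 24 h and 48 h, with an exact binomial difference between the libraries at both times, and the difference between times was not tested. ZNF134 moved by -0.40 on the log2 scale, from 0.21 at 24 h (exact binomial adjusted p = 0.0224) to -0.19 at 48 h (adjusted p = 0.0133). ZNF146 moved by -0.41, from 0.19 (exact binomial adjusted p = 0.0057) to -0.22 (adjusted p = 4.32e-05). ZNF526 moved by 0.61, from -0.20 (exact binomial adjusted p = 0.0429) to 0.40 (adjusted p = 1.24e-05). With DMSO alone ZNF526 was lower at 48 h than at 24 h and ZNF146 was higher, as given above. Whether this bears on the turns was not tested. These p-values compare libraries and not conditions. The medians of a pair of clusters also changed side, untested as well, by -0.18 from ZNF565 to ZNF573 (0.10 to -0.08) and by -0.30 from ZNF575 to ZNF296 (0.16 to -0.13). Without the filter on FPKM the medians of the latter cluster were 0.04 and 0.00.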

How the results depend on the processing

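No paired analysis was possible because the groups share a single replicate number, and none of the 4 libraries could be left out. A fit that takes the times as a pair of blocks was not run, since it would treat 24 h and 48 h as replicates. The count of members called past 2-fold with 1 added was 0, 1 and 1 (melatonin at 24 h, melatonin at 48 h, DMSO 48 h against 24 h). At 1.5-fold it was 2, 13 and 12. With a pseudocount of 0.1 it was 5 at 48 h (ZNF530 and ZNF66 higher, ZNF114, ZNF44 and ZNF579 lower; background 12.1%) and 10 for time (background 15%). On the TPM scale it was 6 at 48 h and 14 for time (backgrounds 13.5% and 20.3%). For time it was 0 among the 42 tested members that overlap no other gene and 2 with plain sums of reads, a setting chosen after seeing the data. The median at 24 h was 0.176 on the TPM scale, where all tested genes moved by 0.15, and -0.01 (-0.0128) after correction for GC content and length. For time it was 0.444 on the TPM scale and 0.172 with plain sums. The other settings kept each count within 1.5 times. Of 110 fold changes of named members 13 changed sign on the TPM scale, 6 after the GC correction, 2 after centring and 0 with the smaller pseudocount, and no member past 2-fold turned. Depth limits the genes under an FPKM of 1, which were not tested. The causes were not tested.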
